A study of Homo sapiens with 6 samples.

Results

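The genes described here are 8 members of the activin and GDF15 part of the TGF-beta superfamily: the ligand genes GDF15, INHBA and INHBB, the antagonist genes FST and FSTL3, and the receptor genes ACVR1B, ACVR2A and ACVR2B. They were taken by symbol from a table of 58302 Ensembl genes, and all 8 were among the 15945 genes with enough reads to be tested. RNA was measured in PC-3, a human cell line established from a bone metastasis of prostate cancer. The cells carried either a lentivirus for overexpression of Bhlhe22, which is a DNA-binding factor of the bHLH (basic helix-loop-helix) class, or a blank lentivirus (the vector group), so that both groups had been exposed to virus. There were 3 libraries per group. The labels do not say whether libraries within a group represent different cultures, whether the cells were a single clone or a pool, or which promoter drives the transgene. All p-values therefore rest on a spread among libraries that may be technical.

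Activins are dimers of inhibin beta subunits: INHBA encodes the subunit of activin A and INHBB that of activin B. They bind the type II receptors ACVR2A and ACVR2B, which recruit and phosphorylate the type I receptor ACVR1B (ALK4), which in turn phosphorylates SMAD2 and SMAD3. Follistatin (FST) and follistatin-like 3 (FSTL3) are secreted glycoproteins that wrap around activins and block receptor binding. GDF15 is a distant relative that is induced by cell stress, is secreted by many tumours including prostate cancers, and acts through the receptor GFRAL and its partner RET in the hindbrain.

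Total counts were 12186723 to 15949537 per library. BHLHE22 had 1 read in each vector library and 92 to 133 in the BHLHE22 libraries. Levels are in CPM, read counts relative to a library size scaled by trimmed mean of M-values. A gene was called when edgeR's quasi-likelihood test gave a Benjamini-Hochberg adjusted p under 0.05 over all 15945 tested genes. The epithelial keratins KRT8, KRT18 and KRT19 were present in every library, and the summed level of 5 epithelial markers was 1167 to 1302 CPM in vector and 1117 to 1323 CPM in BHLHE22 libraries. This sum was mostly KRT19 and hid mixed directions. EPCAM was called higher, from 24.4 ± 3.5 in vector to 55.1 ± 4.5 CPM in BHLHE22 libraries (edgeR adjusted p = 0.000438). KRT8 and KRT18 were called lower (edgeR adjusted p = 0.0218 and 0.0397), and KRT19 and CDH1 were not called. Of the prostate luminal markers, KLK3 had no read in any library. The 6 blood cell markers summed to at most 0.360 CPM, with CD3E, TYROBP and HBB at 0. The 5 prostate luminal markers summed to 143 to 186 CPM in vector and 63.4 to 75.4 CPM in BHLHE22 libraries, nearly all of it TMPRSS2. The 5 fibroblast markers summed to 63.6 to 74.1 and 49.4 to 51.7 CPM, nearly all COL1A1, and the 4 endothelial markers to 96.9 to 105 and 63.8 to 75.9 CPM, nearly all PECAM1 and KDR. The part of these differences in the results was not tested. In bulk RNA, fewer cells with a transcript and less of it per cell cannot be told apart.

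GDF15 was lower in BHLHE22 cells and FSTL3 slightly higher, while the other 6 members, among them both activin subunit genes, FST and all 3 receptor genes, did not pass the test. The share of members called was thus 2 of 8, where 49.4% of all tested genes were called in either direction. GDF15 was the member called lower and FSTL3 the member called higher, against 24.3% and 25.1% of all tested genes. The groups did not overlap for 4 members, higher for FSTL3, ACVR2A and ACVR2B and lower for GDF15, where 60.5% of all tested genes did not overlap, 30.6% higher and 29.9% lower.

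**Figure D1:**
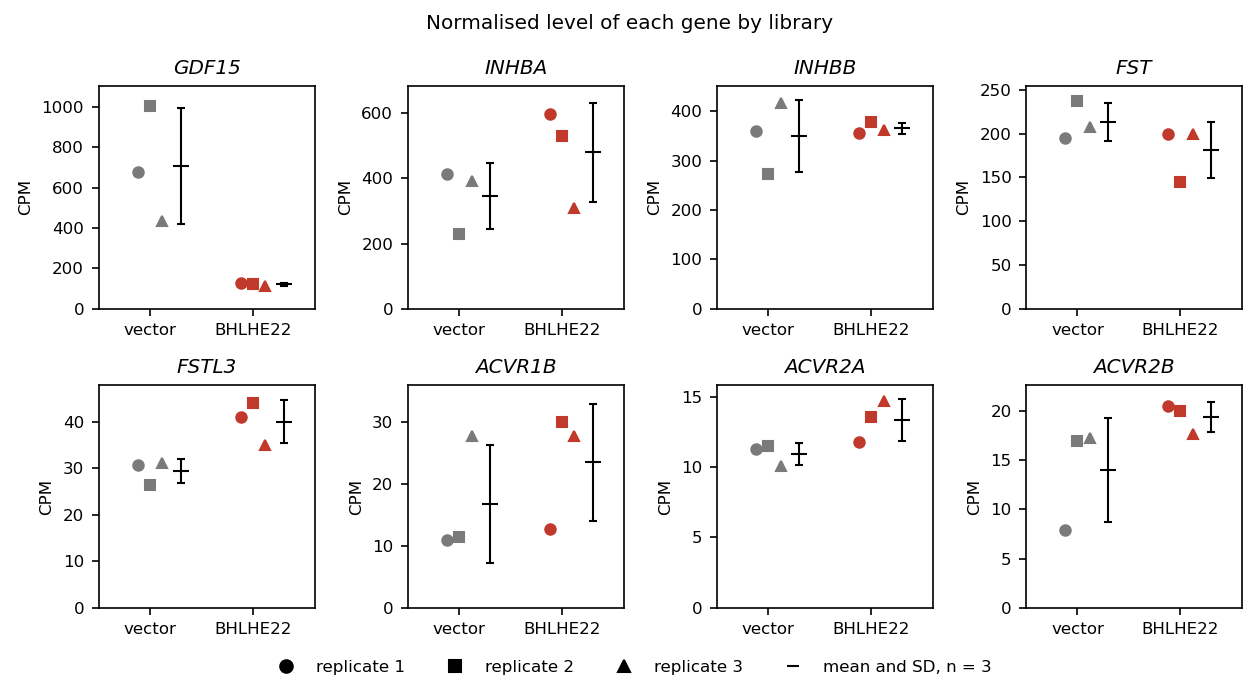
Normalised level in CPM (linear axis from 0) of each of the 8 genes in the 3 vector (grey) and 3 BHLHE22 (red) libraries, with symbols for the replicate number and bars for mean and SD. All 3 BHLHE22 libraries lie below all 3 vector libraries for GDF15, and ACVR1B splits into a low and a high set of libraries within each group.

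GDF15 (ENSG00000130513, chromosome 19 from 18374731 to 18389176 on GRCh38) stood at 679, 1007 and 433 CPM in vector replicates 1 to 3. In the BHLHE22 libraries it stood at 127, 125 and 111 CPM. Every BHLHE22 library was thus below the lowest vector library, and the vector libraries were far apart from each other while the BHLHE22 libraries were close together. The mean fell from 706 ± 288 to 121 ± 9 CPM (SD, n = 3 each). The log2 fold change was -2.55 (SE 0.31, edgeR adjusted p = 0.00134), a 5.85-fold lower level with a 95% interval of 3.46 to 9.88. The highest vector library exceeded the lowest 2.33 times. Of 11865 tested genes with a mean of at least 5 CPM, 4.56% had a larger ratio between libraries of the same group. GDF15 hosts the microRNA gene MIR3189 in its intron, whose row held 13 to 19 reads in vector and 2 or 3 in BHLHE22 libraries. How reads were counted is not given, so these few reads cannot be told apart from reads of unspliced GDF15 RNA.

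The 6-letter E-box CANNTG is the element that bHLH factors bind, so the windows around the start sites of the members were searched for it. RefSeq (GRCh38.p14) gave 9 windows for the 8 members, each running from 250 bases before to 50 bases after a start. These starts need not be those of the counted genes. The counted GDF15 gene begins at 18374731, upstream of its window at 18385908 to 18386207. INHBA, on the minus strand, reaches 41705834, upstream of its window at 41703041 to 41703340. Distances below refer to the RefSeq starts. The pattern CANNTG is symmetric, so that a match on one strand is also a match on the other. An E-box was found in the windows of 5 members, and 68.7% of all 35116 windows of this length hold one. The sites are printed with up to 9 bases on either side and the E-box in capitals, to show which of the many E-box variants lies where, and distances are counted to its 5′ base.
GDF15, chr19:18386035-18386058, plus strand, 114 bases before the start: gaccccgccCAGCTGtggtcattg
GDF15, chr19:18386140-18386163, plus strand, 9 bases before the start: gtccggcagCATCTGgtcagtccc
FSTL3, chr19:676186-676209, plus strand, 197 bases before the start: acatctcccCAAATGcattctctg
FSTL3, chr19:676231-676254, plus strand, 152 bases before the start: gctcgccccCAACTGccccccgca
FST, chr5:53480456-53480479, plus strand, 164 bases before the start: gggaaatgtCACCTGattcacact
ACVR1B, chr12:51951604-51951627, plus strand, 86 bases before a start: ccgggagcgCACGTGcaggcgccg
ACVR1B, chr12:51953223-51953246, plus strand, 152 bases before another start: aatgattctCAGGTGggttcagtc
INHBA, chr7:41703041-41703058, minus strand, in the bases after the start: agctcttacCACATGata
GDF15 and FSTL3, which were called, have 2 E-boxes each, as does ACVR1B over its pair of windows, which was not called. The share of all windows with 2 or more was not counted, so these numbers are not set against a background. FST and INHBA, also not called, have 1 each, and the windows of INHBB, ACVR2A and ACVR2B have none. The windows of GDF15, FSTL3 and INHBA also hold the TATA motif TATAAA on either strand, which occurs in 11.5% of all windows. A match describes these letters only, and binding was not measured here.

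Of 7 listed genes that process or receive GDF15, 4 had too few reads to be tested, 1 fell and 2 did not pass, where 49.4% of all tested genes were called and 24.3% fell. The receptor gene GFRAL had no read in any library, which allows at most 0.0712 CPM over the vector and 0.0691 CPM over the BHLHE22 group (3 counts, for counting error only). RET had 0 CPM in 5 libraries and 0.120 CPM in BHLHE22 replicate 3. PCSK7, which encodes a proprotein convertase, fell from 90.2 ± 6.1 to 69.2 ± 0.8 CPM (SD, n = 3; edgeR adjusted p = 0.00657). FURIN, the gene of the convertase furin, had a log2 fold change of -0.15 (adjusted p = 0.422), and MMP14, the gene of a membrane metalloprotease that can cut GFRAL, 0.26 (adjusted p = 0.0933). MMP14 was called higher without BHLHE22 replicate 3 (log2 fold change 0.38, adjusted p = 0.0131) and with unscaled library sizes (adjusted p = 0.0175).

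The known inducers of GDF15 were mixed, with the regulator ATF4 lower and ATF3 higher. Of 13 listed stress regulators 12 were tested: 5 fell, 2 rose and 5 did not pass, with a median log2 fold change of -0.39 against 0.00 over all tested genes. This is 58.3% of the tested regulators called, against 49.4% of all tested genes, of which 24.3% fell and 25.1% rose. ATF4, the transcription factor of the integrated stress response, stood at 414, 447 and 325 CPM in vector and at 245, 219 and 203 CPM in BHLHE22 libraries. The groups did not overlap, and the log2 fold change was -0.83 (SE 0.13, edgeR adjusted p = 0.00181). EIF2AK3 and EIF2AK1, which encode the kinases PERK and HRI that act upstream of ATF4, had 86.8 ± 16.7 and 464 ± 21 CPM in vector cells and fell to 35.2 ± 3.1 and 259 ± 10 CPM. ERN1 (the sensor IRE1) and its target XBP1, chosen after their values were seen, complete the 5 falls, ERN1 with 228 ± 47 and 114 ± 14 CPM and XBP1 with 107 ± 18 and 52.6 ± 9.9 CPM. ATF3, another stress factor, rose from 6.43 ± 0.98 to 15.0 ± 2.3 CPM (edgeR adjusted p = 0.00115, log2 fold change 1.22). EIF2AK4 (the kinase GCN2), chosen after its values were seen, rose by 0.24 with an adjusted p = 0.0361, and this call was lost in 5 of 13 alternatives, with adjusted p up to 0.109. DDIT3, which encodes CHOP, stood at 27.5 ± 7.1 and 27.7 ± 9.9 CPM (log2 fold change 0.01, 95% interval -0.71 to 0.73, adjusted p = 0.982).

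Of 13 tested genes known to respond to ATF4 and CHOP, 8 fell, 5 did not pass and 0 rose, with a median log2 fold change of -0.56. The falls make 61.5% of the list, where 24.3% of all tested genes fell, 25.1% rose and 49.4% were called in either direction. Like the other lists, it was chosen with earlier results of these data known, so this share is a description only. At an unadjusted p under 0.05, and by DESeq2 and limma-voom, 0 rose too. The number of falls was 6 to 8 when a library was left out. It was 6 with unscaled library sizes or without the low-count filter, and 7 with the replicate block. NUPR1, a stress-induced chromatin protein, stood at 87.5, 110 and 51.4 CPM in vector and 27.5, 23.2 and 16.7 CPM in BHLHE22 libraries (edgeR adjusted p = 0.00409, log2 fold change -1.89). SLC7A11, the cystine transporter gene, fell from 115 ± 16 to 57.2 ± 2.3 CPM and SESN2, a stress-induced inhibitor of mTORC1, had a log2 fold change of -0.83 (adjusted p = 0.00414). PHGDH, the entry enzyme of serine synthesis, fell by 0.52 on the log2 scale. The RNA levels of PSAT1 and ASNS, also ATF4 targets and chosen after their values were seen, had log2 fold changes of -0.06 and -0.24 and did not pass.

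**Figure D2:**
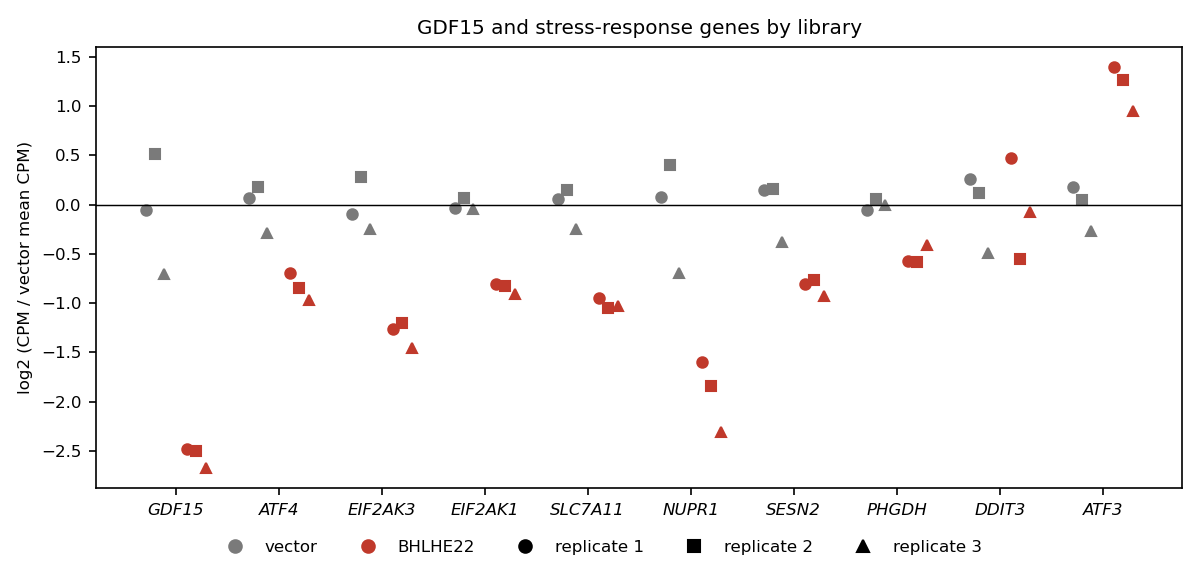
Level of GDF15 and 9 named stress-response genes in each library, as log2 of CPM over the vector mean; grey symbols are vector and red symbols BHLHE22 libraries, by replicate number. GDF15 shows the widest gap between the groups of the genes drawn, the groups overlap for DDIT3, and ATF3 lies higher in the BHLHE22 libraries.

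The genes most like GDF15 across the 6 libraries were YIPF3, ZNF638 and SYT17, each with a Pearson r of at least 0.999 on log2 CPM. They differed far less between groups than GDF15, with log2 fold changes of -0.55, -0.67 and -1.40. A pattern over 6 points that is set mostly by the group is shared widely: 1652 of 15084 genes had an r above 0.95 with GDF15. For FSTL3 the closest genes were CERCAM, CDH3 and TYSND1, with r of 0.994, 0.994 and 0.993, and 205 genes had an r above 0.95. These values are a description and carry no test.

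The activin subunit genes did not pass the test. INHBA (ENSG00000122641, chromosome 7 from 41667168 to 41705834) stood at 414, 230 and 393 CPM in vector replicates 1 to 3 and at 599, 532 and 310 CPM in BHLHE22 replicates 1 to 3. BHLHE22 replicates 1 and 2 were above all vector libraries, and replicate 3 lay within their range. The log2 fold change was 0.47 (SE 0.32, 95% interval -0.30 to 1.25, edgeR adjusted p = 0.264), so that a 2.38-fold rise and a 1.23-fold fall both lie at the ends of the interval. Its antisense neighbour INHBA-AS1 held at most 20 reads per library, against 3386 to 7674 for INHBA. INHBB (ENSG00000163083, chromosome 2 from 120346143 to 120351808) stood at 359, 272 and 416 CPM in vector and 355, 377 and 362 CPM in BHLHE22 libraries. All 3 BHLHE22 libraries lay within the vector range, and the log2 fold change was 0.06 (95% interval -0.27 to 0.40, adjusted p = 0.744). INHBB was thus the most narrowly bounded of the 3 ligand genes, within a 1.32-fold rise and a 1.21-fold fall.

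Among the other ligand and antagonist genes, INHA was lower and FSTL1 higher in BHLHE22 cells. INHA, which encodes the inhibin alpha subunit that pairs with beta subunits to form the activin antagonists inhibin A and B, fell from 2.59 ± 0.69 to 0.849 ± 0.280 CPM (edgeR adjusted p = 0.00463, log2 fold change -1.62 with SE 0.32). It had few reads, 24, 46 and 40 in vector and 15, 10 and 11 in BHLHE22 libraries. The BHLHE22 counts lay near the low-count filter, which INHA passed chiefly through the vector libraries, where it was higher. Its fall is therefore a description only. FSTL1, a secreted protein named for its follistatin domain, rose from 247 ± 20 to 515 ± 9 CPM (edgeR adjusted p = 0.000134, log2 fold change 1.06 with SE 0.08). Of 13 listed ligands and antagonists 4 were tested, of which INHA fell, FSTL1 rose and 2 did not pass. This is 50% of the tested genes called, against 49.4% of all tested genes. The 2 were INHBE and GDF11, named after their values were seen, with log2 fold changes of -1.16 (adjusted p = 0.0715) and -0.42 (adjusted p = 0.439). Leaving out vector replicate 1 or BHLHE22 replicate 3 gave 2 falls, against 3 without BHLHE22 replicate 1, and 4 without vector replicate 3, without BHLHE22 replicate 2 or without the low-count filter. In these fits INHBE, LEFTY1, WFIKKN1 or MSTN joined INHA, which was called in all of them. LEFTY1, WFIKKN1 and MSTN had too few reads to be tested in the main fit. The low-count filter was applied anew when a library was left out. LEFTY1 and WFIKKN1 then passed it only through the vector libraries, where they were higher, so these added falls are no support for a fall. NODAL and CER1 had no read in any library.

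Of the antagonist genes, FSTL3 rose and FST did not pass. FSTL3 (ENSG00000070404, chromosome 19 from 676365 to 683399) stood at 30.8, 26.5 and 31.1 CPM in vector and 41.0, 44.1 and 35.0 CPM in BHLHE22 libraries. The groups did not overlap, though BHLHE22 replicate 3 lay close to the vector libraries. The log2 fold change was 0.44 (SE 0.12, edgeR adjusted p = 0.0194), a 1.36-fold rise with a 95% interval of 1.11 to 1.66. The call was lost without vector replicate 2 (adjusted p = 0.0571) and without BHLHE22 replicate 2 (adjusted p = 0.0722). FST (ENSG00000134363, chromosome 5 from 53480409 to 53487134) stood at 195, 238 and 208 CPM in vector and 200, 145 and 199 CPM in BHLHE22 libraries. Only BHLHE22 replicate 2 lay below the vector range. The log2 fold change was -0.24 (95% interval -0.56 to 0.09, adjusted p = 0.198).

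**Figure D3:**
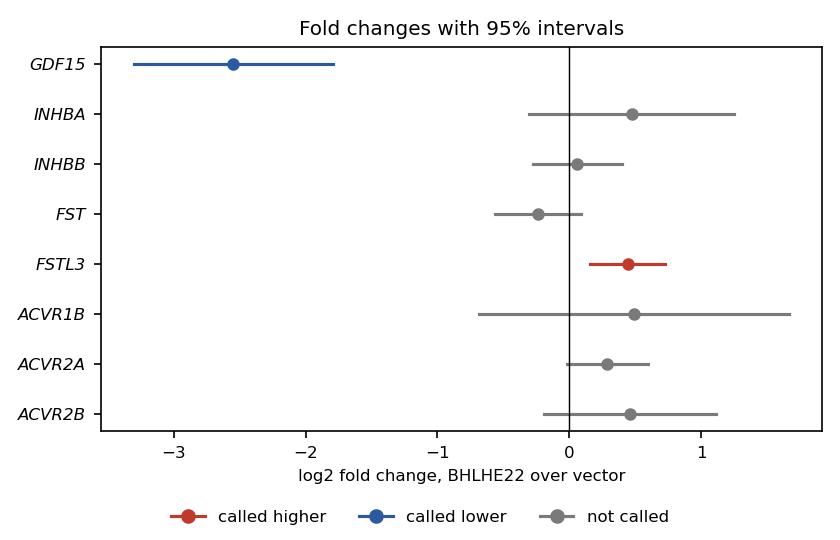
Log2 fold change of each of the 8 genes (BHLHE22 over vector), with the unadjusted 95% interval as a line; blue marks a gene called lower, red called higher and grey not called. GDF15 lies at -2.55, and the intervals of all members except GDF15 and FSTL3 include 0.

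The receptor genes were expressed at low levels and none passed the test, although all 3 had estimates above 0. ACVR1B (ENSG00000135503, chromosome 12 from 51951667 to 51997078) stood at 11.0, 11.5 and 27.8 CPM in vector and 12.7, 30.1 and 27.8 CPM in BHLHE22 libraries. The libraries fell into a low set (vector replicates 1 and 2, BHLHE22 replicate 1) and a high set (the other 3) that cut across the groups. The log2 fold change was 0.49 with a 95% interval of -0.69 to 1.67 (adjusted p = 0.439), the widest of the 8 members. Its highest vector library exceeded the lowest 2.54 times, and 3.66% of the 11865 genes had a larger ratio within a group. Without vector replicate 3 the log2 fold change was 1.07, and it was also not called (adjusted p = 0.0681). ACVR2A (ENSG00000121989, chromosome 2 from 147844517 to 147930826) stood at 11.3, 11.5 and 10.1 CPM in vector and 11.8, 13.6 and 14.7 CPM in BHLHE22 libraries. The groups did not overlap by a narrow margin, and the log2 fold change was 0.29 (95% interval -0.02 to 0.59, adjusted p = 0.106). With unscaled library sizes it was called (edgeR adjusted p = 0.0258, log2 fold change 0.44), a setting that moves the median log2 fold change of all genes up by 0.15. Its last bases overlap ORC4, which had 347 to 598 reads per library against 143 to 245 for ACVR2A. ACVR2B (ENSG00000114739, chromosome 3 from 38453851 to 38493142) stood at 7.94, 16.9 and 17.2 CPM in vector and 20.4, 19.9 and 17.6 CPM in BHLHE22 libraries. Vector replicate 1 was far below the other 5 libraries, which lay close together, and the log2 fold change was 0.46 (95% interval -0.19 to 1.12, adjusted p = 0.204). The overlapping ACVR2B-AS1 held 9 to 18 reads.

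Among the partners of these receptors and the SMAD genes, all called genes were lower. Of 18 listed genes 16 were tested: 7 fell, 0 rose and 9 did not pass, with a median log2 fold change of -0.44 against 0.00 over all tested genes. The share called, 43.8%, was below the 49.4% of all tested genes, of which 24.3% fell and 25.1% rose. By DESeq2 6 and by limma-voom 7 fell, and 0 rose by either tool or at an unadjusted p under 0.05. TGFBR3, which encodes betaglycan, a co-receptor that lets inhibin compete for activin receptors, fell from 46.8 ± 6.4 to 20.5 ± 3.8 CPM (edgeR adjusted p = 0.00101, log2 fold change -1.19 with SE 0.16). SMURF2, a ubiquitin ligase gene for receptors and SMADs, fell from 352 ± 55 to 182 ± 3 CPM, and SKI, a SMAD co-repressor gene, from 313 ± 16 to 219 ± 15 CPM. SMAD3, an effector of activin receptors, stood at 481, 528 and 472 CPM in vector and 398, 379 and 329 CPM in BHLHE22 libraries (edgeR adjusted p = 0.00795, log2 fold change -0.42). All 3 BHLHE22 libraries lay below the vector libraries for SMAD3.

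SMAD7, a feedback inhibitor that SMAD signalling induces, fell from 3.63 ± 0.80 to 2.33 ± 0.08 CPM (edgeR adjusted p = 0.0351). This call was lost in 8 of 13 alternatives, with adjusted p up to 0.112, and without vector replicate 2 the log2 fold change was -0.44 in place of -0.64. The other falls, named after their values were seen, were SMAD4, the common partner SMAD, with a log2 fold change of -0.82 (adjusted p = 0.0160), and BAMBI, a pseudoreceptor that dampens activin signalling, with -1.46 (adjusted p = 0.0361). SMAD4 was not called without vector replicate 2 (adjusted p = 0.0533), vector replicate 3 (0.0519) or BHLHE22 replicate 3 (0.0638). BAMBI stood at 37.7, 93.4 and 30.4 CPM in vector and 21.9, 19.9 and 16.9 CPM in BHLHE22 libraries. It was not called without BHLHE22 replicate 1 (adjusted p = 0.0870), 2 (0.102) or 3 (0.122), or without the low-count filter (0.141), and without vector replicate 2 its log2 fold change was -0.80. Without BHLHE22 replicate 3, 4 of the listed genes fell, and without vector replicate 3, 1 rose (ZFYVE9, a SMAD anchor, adjusted p = 0.0315).

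**Figure D4:**
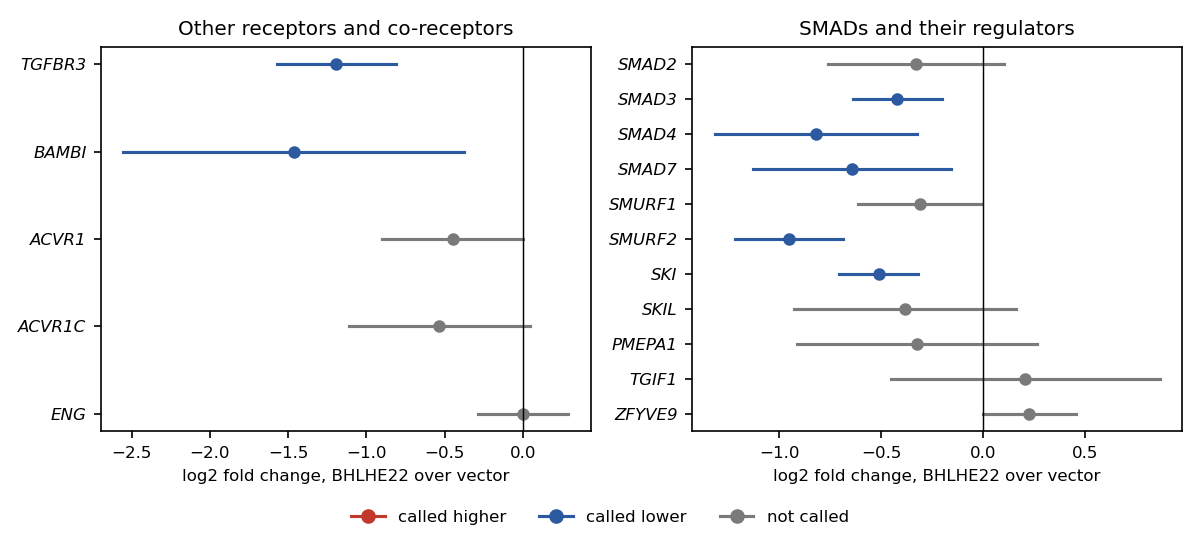
Log2 fold change (BHLHE22 over vector) with unadjusted 95% intervals for the tested receptor partners (left) and the SMAD genes and their regulators (right); blue marks genes called lower and grey genes not called, such as SMURF1, whose interval ends just below 0. The 7 genes called lower include SMURF2, TGFBR3 and SKI.

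Per length, the members span more than 2 orders of magnitude. Levels were compared between genes as CPM per kilobase, with the gene length implied by the deposited counts and FPKM, which is 3452 bases for GDF15 and up to 16777 for ACVR2B. Whether these lengths match the transcripts made in these cells was not checked. The order of the genes therefore rests on them. In vector cells GDF15 was the highest at 205 ± 83 CPM per kilobase (SD, n = 3), followed by INHBB at 109 ± 23, FST at 38.3 ± 3.9, INHBA at 28.9 ± 8.4, FSTL3 at 4.68 ± 0.41 and ACVR1B at 2.12 ± 1.21. ACVR2B and ACVR2A followed at 0.834 ± 0.313 and 0.833 ± 0.058 and did not differ beyond their spread. GDF15 and INHBB overlapped as well, since vector replicate 3 had 125 for GDF15 and 130 for INHBB. In BHLHE22 cells INHBB was the highest at 114 ± 3 CPM per kilobase. INHBA at 40.2 ± 12.7, GDF15 at 35.0 ± 2.6 and FST at 32.5 ± 5.7 overlapped with each other there, followed by FSTL3 at 6.37 ± 0.74, ACVR1B at 2.97 ± 1.19, ACVR2B at 1.15 ± 0.09 and ACVR2A at 1.02 ± 0.11.

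Antagonist RNA was below ligand RNA in all 6 libraries. The summed level per length of FST and FSTL3 over that of INHBA and INHBB was 0.272, 0.449 and 0.259 in vector and 0.263, 0.203 and 0.297 in BHLHE22 libraries. The groups overlapped, and vector replicate 2, with the lowest INHBA and INHBB and the highest FST, stood apart. FST over FSTL3 was 7.15, 10.1 and 7.54 in vector and 5.50, 3.71 and 6.42 in BHLHE22 libraries, without overlap. INHBA over INHBB was 0.309, 0.227 and 0.253 in vector and 0.451, 0.378 and 0.229 in BHLHE22 libraries, with overlap. These ratios of RNA levels are given without a test, and their size rests on the same implied gene lengths.

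**Figure D5:**
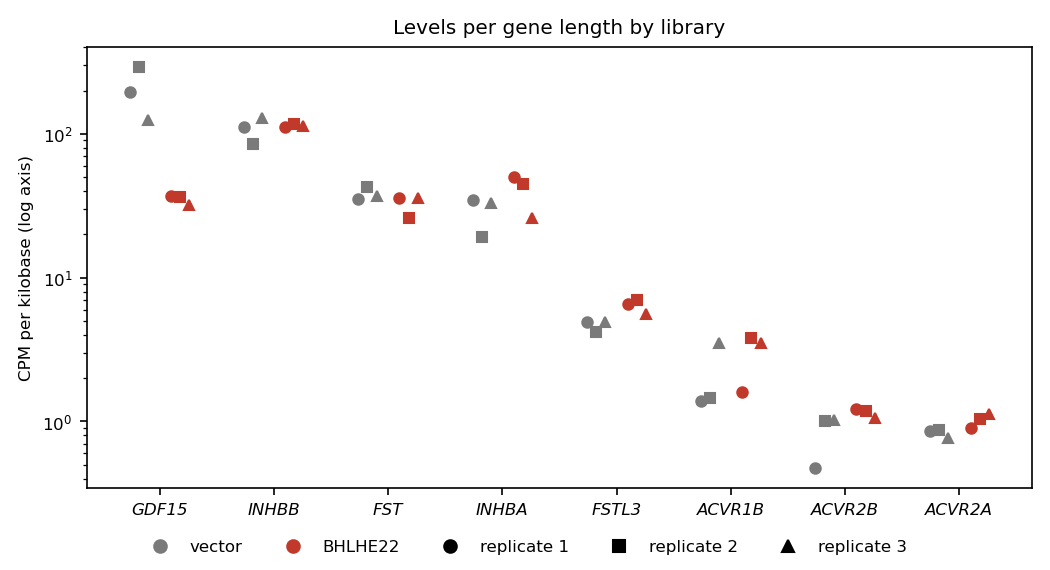
Level per gene length (CPM per kilobase, log axis) of the 8 genes in each library, ordered by the vector mean; grey symbols are vector and red symbols BHLHE22 libraries, by replicate number. GDF15 is the highest gene on average in vector cells and lies among INHBA and FST in BHLHE22 cells, while INHBB stays near 110 CPM per kilobase in both groups.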

How the data were processed

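The authors deposited 1 table with whole-number read counts and FPKM values per Ensembl gene, per the file headers. Builds GRCh38 and hg38, HISAT2 2.1.0, StringTie 1.3.4b, CASAVA 1.8 and edgeR are listed, without roles, in the submitters' processing notes. How reads were counted and whether strand was kept is not given in the sources used here, so reads of overlapping antisense genes cannot be separated. The vector libraries are the columns headed control.

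Counts were tested with edgeR 4.0.16 in R 4.3.3 (filterByExpr, TMM, robust quasi-likelihood, group as the only term, 2-sided). The tested genes held 99.8% of each library's counts, and the common biological coefficient of variation was 17.0%. The SE is the size of the log2 fold change divided by the square root of F, and 95% intervals use the test's degrees of freedom and are not adjusted. The deposited FPKM served for gene lengths and as an alternative level. Likeness used log2 CPM with a prior count of 2. Alternatives were a replicate block, other scalings, DESeq2 1.42.0, limma-voom (limma 3.58.1), other low-count filters and leaving out each library. The procedure was run on simulated counts in which few genes changed, as many up as down. In the real data 49.4% of tested genes were called, so that run does not give the error rate here. Gene positions are those of the table, and start windows come from RefSeq.

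The members and gene lists were chosen with earlier results of these data known. Named by rule are all members, up to 4 called genes of smallest p per list, ATF4, DDIT3, ATF3 and SMAD7, and the 3 genes most like each called member. Any other listed gene counts as chosen after its values were seen. Among these are GFRAL, RET, FURIN, MMP14, NODAL, CER1, ZFYVE9, SMURF1 and PMEPA1. Single values of some listed genes are not reported here. Libraries differed by more than sampling noise: within groups, chi-square per degree of freedom was 11.8 to 24.9, and between groups 75.6 to 153.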

Additional observations from a re-analysis of the deposited data

How the results depend on the processing

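The fall of GDF15 kept its direction and its call in all 13 alternatives, with log2 fold changes of -2.80 to -2.20 when a library was left out and adjusted p of at most 0.00981. The number of members called higher was 2 with unscaled library sizes, which add ACVR2A, and 0 to 1 when a library was left out; 1 was called lower throughout. INHBB had log2 fold changes of -0.087 to 0.215 when a library was left out, below 0 without vector replicate 2. DDIT3 had -0.0098 with the replicate block, -0.019 with limma-voom and -0.282 to 0.235 when a library was left out, below 0 without vector replicate 3 or BHLHE22 replicate 1. Unscaled library sizes gave 1 receptor or SMAD gene and 1 GDF15 processing gene called higher, and 64.0% of all called genes were higher there, against 50.7% with TMM. Leaving out a library gave 0 to 1 higher for each of these lists, 1 to 2 higher stress regulators and 4 to 8 lower receptor or SMAD genes. It gave 1 to 4 lower among the other ligands and antagonists, also 4 without the low-count filter, partly from genes not tested in the main fit. At an adjusted p under 0.01, 2480 genes were higher and 2482 lower. The labels give both groups the numbers 1 to 3, but the deviations of same-numbered libraries correlated at 0.01, -0.03 and 0.01, and 2 of 6 libraries correlated best with their own number. With the replicate block 3688 genes were higher and 3604 lower, against 3996 and 3880, and 1 stress regulator was higher. The cause of these changes was not tested. The receptor genes had 105 to 463 reads per library, but precision did not follow depth among the members: the SE was 0.13 for ACVR2A and 0.32 for INHBA, which had 3386 to 7674 reads.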

Other observations

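Several genes of this family, chosen here after their values were seen, differed between libraries of the same group more than most genes did. Of the 11865 genes with a mean of at least 5 CPM, 1.84% had a larger ratio within a group than GDF11. The share was 3.66% for ACVR1B and 5.64% for PMEPA1. Other genes of the family did not stand out, with 55.1% for FSTL3, 57.7% for ACVR2A and 74.2% for FSTL1. GDF11, the gene of a close relative of myostatin that shares the activin type II receptors, stood at 44.2, 44.7 and 42.5 CPM in vector libraries. In the BHLHE22 libraries it stood at 13.3, 40.3 and 44.2 CPM, so that replicate 1 was far below the other 5 libraries. ACVR1B was low in that library too, at 12.7 CPM, but it was equally low in vector replicates 1 and 2, where GDF11 was not. PMEPA1, a gene induced by SMAD signalling whose product dampens it, stood at 25.0, 25.0 and 24.7 CPM in vector and 12.5, 20.0 and 26.9 CPM in BHLHE22 libraries.

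Some family members under the filter on low counts were seen mainly in vector cells. LEFTY1, an antagonist of NODAL, stood at 1.82, 2.11 and 0.493 CPM in vector and 0.0780, 0.359 and 0.180 CPM in BHLHE22 libraries. WFIKKN1, which encodes an inhibitor of myostatin and GDF11, stood at 1.21, 1.29 and 0.704 CPM in vector and 0.234, 0.215 and 0.360 CPM in BHLHE22 libraries. The groups did not overlap for either gene, as for 60.5% of all tested genes. The BHLHE22 libraries held only 1, 5 and 3 reads of LEFTY1 and 3, 3 and 6 of WFIKKN1. Other listed genes with few reads went the other way. INHBC had 0 reads in each vector library and 0, 3 and 4 in BHLHE22 libraries, and GDF3 had 0 in each vector library and 0, 2 and 0. Neither LEFTY1 nor WFIKKN1 passed the low-count filter with all libraries kept. In the fit without that filter edgeR gave log2 fold changes of -2.76 for LEFTY1 and -1.91 for WFIKKN1. These values are a description and no support for a fall. These genes were chosen after their values were seen.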
